A study of Mus musculus with 8 samples.

Results

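Among 8 liver tumors of male FAH-/- mice profiled by array comparative genomic hybridization, 4 had a low level of chromosome 12. They were chosen by the mean log2 ratio of tumor to reference over the chromosome 12 spots of each array, relative to the array's autosomal median. Tumors 1, 4, 6 and 8, in the order of deposition, lay below -0.15 and are called the chromosome 12 loss tumors. Tumors 2, 3, 5 and 7 are the other tumors. The 2 groups therefore come from the measurements and not from the labels, which put all 8 tumors in 1 group.

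Each tumor came from an individual male mouse without a functional Fah gene, kept on drinking water with 7.5 mg/L NTBC and then on 2.5% of that dose for 6 to 12 months. Both groups share this genotype, sex and treatment, and the age of the mice is not given. Tumor DNA carried Cy5, and the Cy3 reference was liver DNA pooled from 6 male FAH+/+ littermates. The same pool was used on every array, so variation among wild-type mice enters no error given here. Non-tumor liver of the tumor mice was not analysed here.

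Fah encodes fumarylacetoacetate hydrolase, which carries out the last step of tyrosine breakdown. Without it, toxic intermediates build up in hepatocytes, and the drug NTBC (nitisinone) blocks the pathway further upstream. Hepatocytes of mice are often polyploid, and loss or gain of whole chromosomes is a common form of genome change in liver tumors. In comparative hybridization, tumor and reference DNA compete for the same probes, so the log2 ratio follows the average copy number over all cells of the sample. For a chromosome with 2 copies, loss of 1 copy in every cell would give -1 and gain of 1 copy 0.58. The share of changed cells and the ploidy were not measured, so a level does not give a copy number.

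The mean of chromosome 12 was -0.47, -0.24, -0.25 and -0.33 in tumors 1, 4, 6 and 8. It was -0.016, 0.17, 0.014 and 0.056 in tumors 2, 3, 5 and 7. Tumor 4 lay closest to the threshold from below and tumor 2 closest from above. These values chose the groups and are given without a test. Chromosome 12 carries Gstz1, which makes the substrate of Fah, the growth kinase Akt1, the Hippo scaffold Sav1 and the imprinted genes Dlk1 and Meg3.

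2 scales were used. The first is centred on the array median. The second removes the probe-specific part of the log2 ratios that the arrays had in common (correlation between arrays 0.71 to 0.96) and sets the commonest segment level of each tumor to 0. There, chromosome 12 had means of -0.69, -0.37, -0.49 and -0.40 in the loss tumors. It was -0.15, -0.028, -0.0058 and -0.035 in tumors 2, 3, 5 and 7, and 23.8% of the probed length of chromosome 12 was called lost in tumor 2. Chromosome 12 was called lost as a whole in the 4 loss tumors and in no other tumor on both scales.

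Each array held 174305 spots, and 163037 probes lay on the other autosomes and X. Probe noise on the first scale was 0.62 to 0.65 in tumors 1 to 6 and 0.39 in tumors 7 and 8, so that each group holds 1 array of low noise. Each of the 2 slides holds 2 tumors of each group. The number of arrays limits the precision. With 4 tumors against 4 there are 70 splits, and the smallest p of a two-sided exact permutation test is 0.0286.

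The question was whether the rest of the genome differed between tumors with and without the chromosome 12 loss. A segment was called gained or lost at a mean of at least 0.2 in size, and a chromosome as a whole when the calls in 1 direction covered 80% or more of its probes' span. Outside chromosome 12, whole-chromosome losses on the second scale were found in tumors 1 (chromosomes 4 and 13), 6 (8, 9, 13, 14 and X) and 8 (14) of the loss group. Among the other tumors, tumor 3 had lost chromosomes 1, 3, 6, 7 and 18. Tumor 4 lost chromosome 12 and no further chromosome as a whole, and tumors 2, 5 and 7 lost none.

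**Figure D1:**
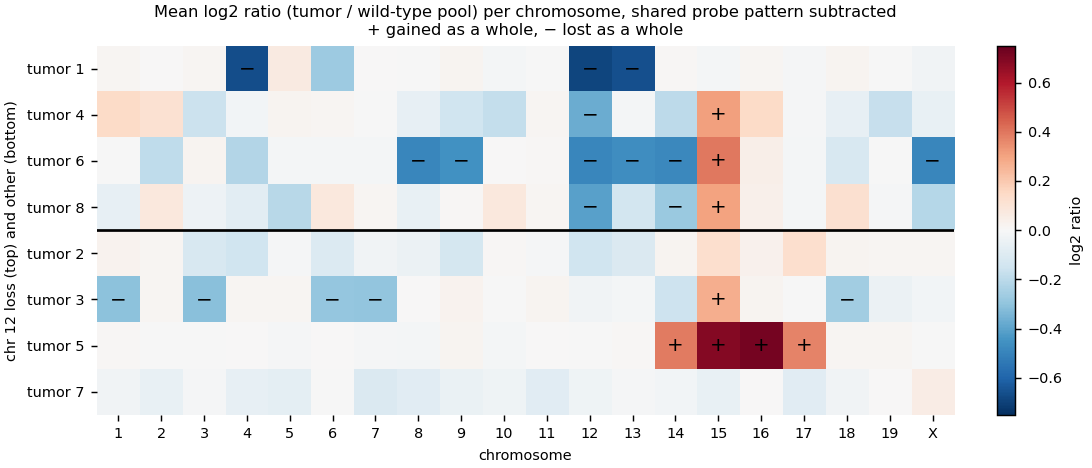
Mean log2 ratio of each chromosome (columns) in each tumor (rows) on the second scale, with the chromosome 12 loss tumors above the line and the other tumors below it. Colour gives the level, + a whole-chromosome gain and − a whole-chromosome loss. Chromosome 13 was lost in tumors 1 and 6 and chromosome 14 in tumors 6 and 8, and tumor 3 had 5 whole losses on other chromosomes beside a partial loss of chromosome 14.

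Of the 19 chromosomes outside chromosome 12, 6 were called lost as a whole in at least 1 loss tumor on the second scale and 5 in at least 1 other tumor, with 0 in both. All of the latter 5 came from tumor 3, and the overlap was not tested. Partial losses did coincide: tumor 3 had 54.4% of chromosome 14 called lost, and tumors 1 and 4 had partial losses of chromosomes 6 and 18, both lost in tumor 3. The number of whole losses per tumor outside chromosome 12 was 2, 0, 5 and 1 in tumors 1, 4, 6 and 8 against 0, 5, 0 and 0 in tumors 2, 3, 5 and 7. The means were 2.0 ± 2.16 and 1.25 ± 2.50 (SD, n = 4 each, exact permutation p = 0.657). The groups overlapped, since each held a tumor with 5 losses and a tumor with none.

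On the first scale the other tumors had no whole-chromosome loss, and the loss tumors had 2, 0, 5 and 0 (exact permutation p = 0.429). Tumor 8 lost its call on chromosome 14 there, and tumor 3, whose commonest segment level lay 0.20 above its array median, lost all 5. A call thus depends on where 0 is set.

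Within a loss tumor, further lost chromosomes can be set beside chromosome 12 itself, since all levels come from the same array. In tumor 1, chromosomes 4 and 13 had means of -0.67 ± 0.043 and -0.66 ± 0.040 on the second scale (SD over 1 Mb bins), against -0.69 ± 0.072 for chromosome 12. Bins of a chromosome share an array and are not replicates, so no test is given. The 3 levels lay within the SD of chromosome 12.

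In tumor 6, chromosomes 8, 9, 13, 14 and X had means of -0.49, -0.46, -0.47, -0.48 and -0.49, against -0.49 ± 0.044 for chromosome 12. They all lay within that SD. X is present once in a male cell and the autosomes are present in pairs, so equal ratios of X and an autosome do not stand for equal changes in copies. Tumor 6 also had the lowest mean over 122 probes of the Y chromosome on the first scale, -0.45 (SD over probes 0.61), whereas the other 7 tumors lay between -0.095 and 0.18. On that scale X of tumor 6 was at -0.28 and its lost autosomes between -0.26 and -0.23, so the Y level is not to be set beside the second-scale levels above.

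Tumor 8 differed in this respect. Chromosome 14 had a mean of -0.28 ± 0.068 and chromosome 12 of -0.40 ± 0.067, with tumor 8's X at -0.21 ± 0.054 and its chromosome 5 at -0.21 ± 0.077. The last 2 were called lost over 54.5% and 41.7% of their length, without a whole-chromosome call. Levels between 0 and that of chromosome 12 were also found in tumor 4, with chromosomes 14, 10, 19, 3 and 9 at -0.20, -0.18, -0.17, -0.16 and -0.15 (SD 0.024 to 0.036), and in tumor 6, with chromosomes 4 and 2 at -0.22 ± 0.058 and -0.19 ± 0.046. Tumor 2 of the comparison group had similar shallow levels, with chromosomes 4, 9 and 3 at -0.15, -0.13 and -0.12. Chromosome 12 had the lowest mean of all chromosomes in tumors 1, 4 and 8 on both scales, and the third lowest in tumor 6. It was also the lowest chromosome of tumor 2, from the comparison group, on the second scale (-0.15).

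**Figure D2:**
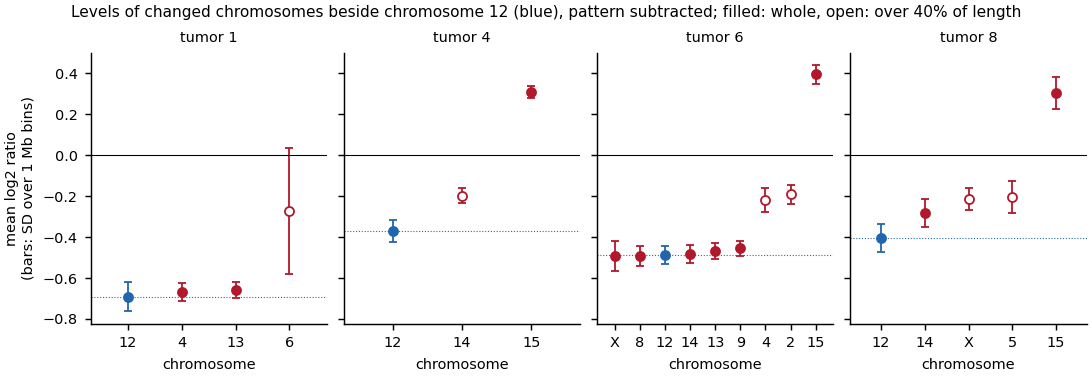
Mean log2 ratio on the second scale of the changed chromosomes in each chromosome 12 loss tumor, ordered by level, with the SD over 1 Mb bins as bars. Filled points are whole-chromosome calls, open points chromosomes called over more than 40% of their length, and the dotted line is the level of chromosome 12 (blue). In tumors 1 and 6 the other lost chromosomes lie at that line, and in tumor 8 chromosome 14 lies above it at -0.28.

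Chromosome 15, which carries Myc, was gained in both groups. Its mean on the second scale was -0.014, 0.31, 0.39 and 0.30 in tumors 1, 4, 6 and 8, and 0.13, 0.27, 0.69 and -0.055 in tumors 2, 3, 5 and 7. It was gained as a whole in 3 of 4 loss tumors and 2 of 4 other tumors. The group means were 0.25 ± 0.18 and 0.26 ± 0.32 (SD, n = 4 each, exact permutation p = 0.971). Tumor 1 of the loss group and tumor 7 of the others had no gain.

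No other chromosome was gained as a whole in a loss tumor on the second scale, whereas tumor 5 of the other group gained chromosomes 14, 15, 16 and 17. Whole gains numbered 0, 1, 1 and 1 in tumors 1, 4, 6 and 8 and 0, 1, 4 and 0 in tumors 2, 3, 5 and 7 (exact permutation p = 0.971). The first-scale counts were 11, 2, 9 and 1 against 1, 6, 4 and 0 (p = 0.343, exact permutation), again with overlapping groups. The 11 and 9 gains of tumors 1 and 6 were counted against an array median that lay 0.215 and 0.225 below their commonest segment level.

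Among the genome-wide summary measures, the share of the probed length outside chromosome 12 that was called lost had the lowest p, on the first scale. It was 13.6%, 1.99%, 26.2% and 2.34% in tumors 1, 4, 6 and 8, and 0.453%, 0.00173%, 0.575% and 2.23% in tumors 2, 3, 5 and 7. Tumor 4 lay below tumor 7, so the groups overlapped by this 1 pair. The means were 11.03 ± 11.46% and 0.814 ± 0.973% (SD, n = 4 each, exact permutation p = 0.0571). Within slides the means were 7.77% against 0.228% on the first slide and 14.3% against 1.40% on the second, each with 2 tumors a group and no test.

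The p fell to the smallest value of 0.0286 under 4 other settings, among them centring on the autosomes without chromosome 12. It was 0.514 on the second scale, with 13.6%, 4.33%, 32.8% and 10.9% lost in tumors 1, 4, 6 and 8, and 0.890%, 32.1%, 0.509% and 7.64% in tumors 2, 3, 5 and 7. There the 32.1% of tumor 3 lay beside the 32.8% of tumor 6. Within the first slide the order of the means turned on that scale, 8.95% in loss tumors against 16.5% in the others.

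Gained length showed no separation. Values on the first scale were 64.8%, 20.3%, 47.6% and 9.93% in tumors 1, 4, 6 and 8, and 7.53%, 40.4%, 16.5% and 8.01% in tumors 2, 3, 5 and 7 (exact permutation p = 0.2). The second scale gave 0.890%, 4.87%, 4.15% and 4.16% in the loss tumors and 0.440%, 4.03%, 16.5% and 0.344% in the others (exact permutation p = 0.971). The loss tumors had the higher mean on the first scale and the lower mean on the second.

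A measure that does not depend on where 0 is set is the SD of the means of the 18 other autosomes, which grows with the number and size of whole-chromosome changes. It was 0.22, 0.14, 0.24 and 0.13 in tumors 1, 4, 6 and 8 and 0.083, 0.16, 0.25 and 0.034 in tumors 2, 3, 5 and 7 on the first scale. The means were 0.18 ± 0.057 and 0.13 ± 0.093 (SD, n = 4 each, exact permutation p = 0.429). The loss tumors covered a narrower range, inside that of the others. The highest and the lowest tumor both belonged to the group without the loss. The second scale gave means of 0.18 ± 0.056 and 0.13 ± 0.092 (SD, n = 4 each, exact permutation p = 0.429).

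**Figure D3:**
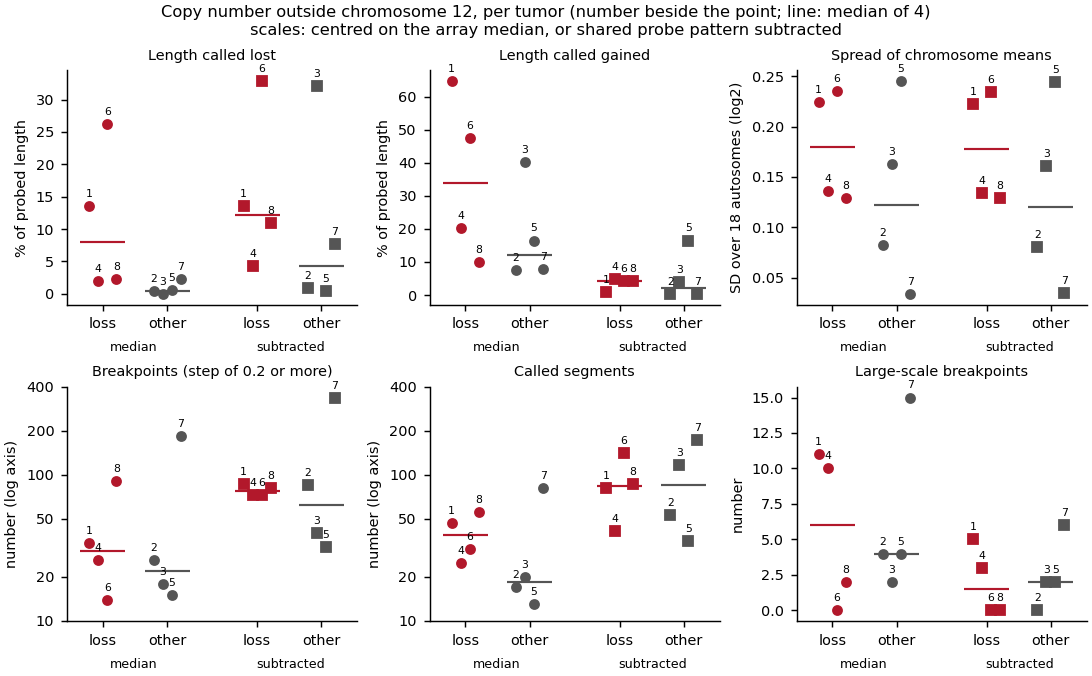
Measures outside chromosome 12 in each tumor, with the chromosome 12 loss tumors in red and the other tumors in grey, circles for the first scale (median) and squares for the second (subtracted), and the median of 4 as a line. The vertical axes give percent of probed length, the SD of chromosome means (log2) or numbers, on a log axis for breakpoints and called segments. The groups overlap in every panel, with length called lost on the first scale the closest to separation.

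Breakpoints, which are boundaries between neighbouring segments with a step of at least 0.2, did not follow the chromosome 12 loss. They numbered 34, 26, 14 and 91 in tumors 1, 4, 6 and 8 and 26, 18, 15 and 184 in tumors 2, 3, 5 and 7 (exact permutation p = 0.857). Both high counts came from tumors 7 and 8, the arrays of low noise on that scale. Without these 2 tumors the loss tumors had on average 5.0 more breakpoints (exact permutation p = 0.7), whereas with them they had fewer (difference of means -19.5). Counts on the second scale were 87, 73, 73 and 81 against 85, 40, 32 and 338 (exact permutation p = 0.914), where the first 4 are tumors 1, 4, 6 and 8. There the probe noise was highest in tumors 7 and 8, 0.21 and 0.18, against 0.12 to 0.17 in tumors 1 to 6. A link between noise and counts was not tested.

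Called segments numbered 47, 25, 31 and 56 in tumors 1, 4, 6 and 8 and 17, 20, 13 and 81 in tumors 2, 3, 5 and 7 on the first scale (exact permutation p = 0.714). The loss tumors lay above all others except tumor 7. The second scale gave 81, 41, 142 and 86 against 53, 117, 35 and 174 (exact permutation p = 0.914). The separation of the first scale from 3 of the other tumors was not seen there.

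Many of these boundaries enclose short stretches. Large-scale breakpoints, with stretches of at least 3 Mb on both sides, were therefore counted too, by a rule added after the data had been seen. On the second scale they numbered 5, 3, 0 and 0 in tumors 1, 4, 6 and 8 and 0, 2, 2 and 6 in tumors 2, 3, 5 and 7 (exact permutation p = 0.914). The first scale gave 11, 10, 0 and 2 against 4, 2, 4 and 15 (exact permutation p = 1.0). Tumors 1 and 4 thus carried partial-chromosome changes beside the loss of chromosome 12, while tumors 6 and 8 had no such breakpoint on the second scale at a step of 0.2. At a step of 0.15, tumor 6 had 2 and tumor 8 had 0. Partial calls of shallow level were present in both. Chromosomes 4 and 2 of tumor 6 were called lost over 55.6% and 43.5% of their length, and X and chromosome 5 of tumor 8 over 54.5% and 41.7%.

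The largest of these in a loss tumor was on chromosome 6 of tumor 1, where chr6:33230044-94158984 (mm9) had a mean of -0.62 between flanks of -0.028 and 0.0059. That level was near the -0.69 of chromosome 12 in the same tumor. The step at the proximal side, measured over 3 Mb on each side, was -0.59 in tumor 1 and between 0.0039 and 0.10 in the other 7 tumors. Tumor 1 also had 2 partial gains, chr5:136387909-152519030 at 0.42, reaching the last probe of the chromosome, and chr3:20439606-24113571 at 0.41. At these 3 boundaries the steps of the other tumors were at most 0.070 in size, against 0.42, 0.43 and 0.41 in tumor 1.

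In tumor 4, chr8:87594415-110087005 had a mean of -0.35 and chr18:68140662-90744509 of -0.32, against -0.37 for chromosome 12. The steps were -0.37 and 0.36 on chromosome 8 and -0.38 on chromosome 18, and those of the other tumors at these places were at most 0.13 in size. No other tumor changed level there, though tumor 6 had lost chromosome 8 as a whole and tumor 3 most of chromosome 18. Chromosome 16 of tumor 4 was called gained over 17.4% of its length, with a mean of 0.14 for the whole chromosome.

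**Figure D4:**
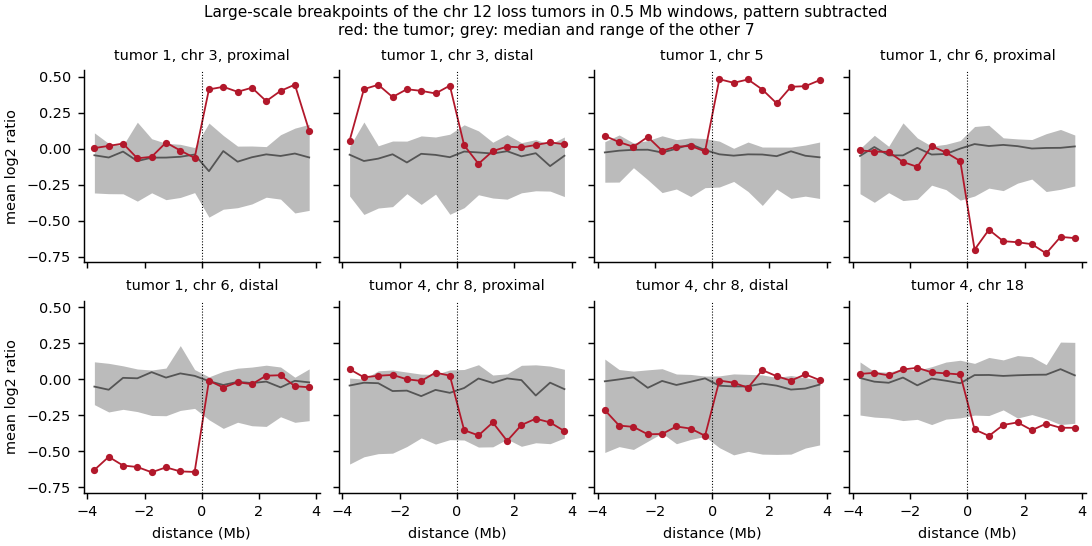
Mean log2 ratio on the second scale (vertical axis) in 0.5 Mb windows by distance in Mb from the 8 large-scale breakpoints found in the chromosome 12 loss tumors. Red is the tumor with the breakpoint, and grey the median and the range of the other 7 tumors. The red line changes level at 0 by 0.36 to 0.62 in size, and the grey median runs flat.

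Partial changes were found in the other tumors as well, and some covered the same ground. In tumor 5, chr5:46497585-57882170 had a mean of -0.52. In tumor 3, chr14:60785903-125164256 and chr18:13541522-90744509 had means of -0.29 each, and the latter contains the stretch lost in tumor 4. In tumor 7, chr5:110452554-152519030 had a mean of -0.19, short of the 0.2 of a call, and contains the distal stretch gained in tumor 1. The 6 breakpoints of tumor 7 lay on chromosomes 5, 8 and 19. The means of the stretches on their 2 sides differed by 0.21 to 0.31 in size. Measured over 3 Mb on each side, as for the loss tumors above, the steps were 0.12 to 0.29 in size. Both on chromosome 8, -0.15 and 0.12, were then under 0.2. With segments merged up to a step of 0.3, 0 of these 6 were counted. Under that setting the loss tumors had 5, 3, 0 and 0 and the others 0, 0, 2 and 0 (exact permutation p = 0.429).

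Chromosome by chromosome, the mean levels of the 2 groups overlapped for all 19 chromosomes outside chromosome 12 on the first scale (0 of 19, 0%). On the second scale they were apart for 1 of 19 (5.26%), the X chromosome. A single chromosome at the smallest p could not pass the adjustment over 19 chromosomes, and the lowest adjusted p (Benjamini-Hochberg on exact permutation tests) was 0.489 and 0.407. Chromosomes X, 7, 13 and 14 had the lowest p on the second scale, and their values follow. On the first scale chromosome 7 had the lowest (exact permutation p = 0.0571), followed by chromosomes 1 and 18 (0.114 each). Chromosome 1 was called gained as a whole there in 3 of 4 loss tumors and 0 of 4 other tumors. On the second scale this was 0 of 4 in both groups.

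The mean of X on the second scale was -0.025, -0.053, -0.49 and -0.21 in tumors 1, 4, 6 and 8 and 0.014, -0.021, -0.00063 and 0.053 in tumors 2, 3, 5 and 7 (exact permutation p = 0.0286, adjusted 0.407). The gap between tumors 1 and 3 was less than the SD of X over 1 Mb bins in either tumor (0.048 and 0.034). X overlapped between groups on the first scale (-0.055 ± 0.20 against 0.099 ± 0.073, SD, n = 4 each, exact permutation p = 0.257). The clear reductions were thus in tumors 6 and 8.

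Chromosome 13 carries Tert, the catalytic subunit of telomerase, and Pik3r1, a regulatory subunit of PI3 kinase. Its mean on the second scale was -0.66, -0.015, -0.47 and -0.14 in tumors 1, 4, 6 and 8 and -0.11, -0.016, 0.010 and -0.011 in tumors 2, 3, 5 and 7. Tumor 4 lay with the others. The means were -0.32 ± 0.30 and -0.032 ± 0.054 (SD, n = 4 each, exact permutation p = 0.0857, adjusted 0.407). Without tumor 4 the groups did not overlap on either scale, a choice made after the values were seen.

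Chromosome 14 carries Rb1, which restrains entry into the cell cycle, and Lats2, a Hippo kinase. Its mean on the second scale was 0.0063, -0.20, -0.48 and -0.28 in tumors 1, 4, 6 and 8 and 0.019, -0.16, 0.39 and -0.020 in tumors 2, 3, 5 and 7. Here tumor 1 lay with the others. The means were -0.24 ± 0.20 and 0.058 ± 0.23 (SD, n = 4 each, exact permutation p = 0.0857, adjusted 0.407). Without tumor 1 the groups did not overlap on either scale. Low levels of chromosomes 13 and 14 were thus shared by 3 of 4 loss tumors each, with tumors 6 and 8 in both sets. In tumor 8 chromosome 13 at -0.14 was close to the -0.11 of tumor 2. In tumor 4 chromosome 14 at -0.20 was close to the -0.16 of tumor 3. The chromosome 14 mean of the other tumors includes the whole gain of tumor 5 at 0.39, and their median was -0.00080.

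Chromosome 7, which carries Fah and the imprinted genes Igf2 and H19, ran the other way. Its mean on the second scale was 0.00077, -0.0021, -0.015 and 0.013 in tumors 1, 4, 6 and 8 and -0.028, -0.30, -0.011 and -0.11 in tumors 2, 3, 5 and 7 (exact permutation p = 0.0571). The loss tumors had no change of chromosome 7, and the difference came mostly from the loss in tumor 3. On the first scale the means were 0.16 ± 0.064 and -0.0037 ± 0.085 (SD, n = 4 each, exact permutation p = 0.0571). Under some other settings, given below, the groups did not overlap on chromosome 7, also with tumor 3 left out.

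**Figure D5:**
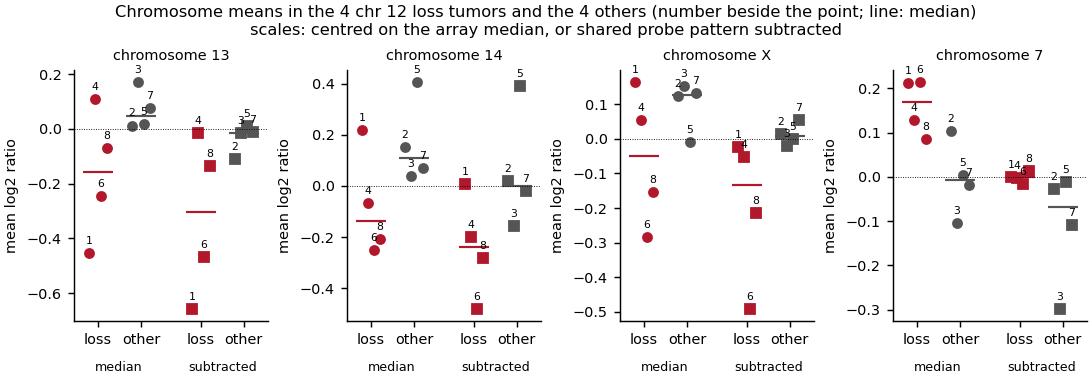
Mean log2 ratio (vertical axis) of chromosomes 13, 14, X and 7 in each tumor, with chromosome 12 loss tumors in red and the others in grey, circles for the first scale (median), squares for the second (subtracted), and lines for the median of 4. Tumor 4 lies with the other tumors on chromosome 13 and tumor 1 on chromosome 14. X is apart between groups on the second scale only, with tumor 1 at -0.025 and tumor 3 at -0.021.

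At a finer scale, 2425 bins of 1 Mb outside chromosome 12 were tested with limma, and 0 (0%) differed between the groups on the first scale at an adjusted p below 0.05 (lowest adjusted p 0.550). Again 0 (0%) differed on the second scale (lowest 0.680). At an unadjusted p below 0.05, limma gave 116 bins lower (4.78%) and 38 higher (1.57%) in the loss tumors on the first scale. It gave 122 lower (5.03%) and 3 higher (0.124%) on the second. Neighbouring bins share a chromosome-wide change, so these counts are not of independent places.

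The lower bins lay on few chromosomes. On the second scale 48 of the 117 bins of chromosome 13, 46 of the 116 bins of chromosome 14 and 28 of the 150 bins of X were below the unadjusted threshold of limma, and no bin of another chromosome was lower. For the first scale, 59 were on chromosome 13, 55 on chromosome 14 and 2 on X. The higher bins of the first scale lay on chromosomes 6 (19), 7 (16) and 1 (3).

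The region with the lowest p among those lower on the second scale was chr13:96000001-101000000, with means of -0.62, -0.032, -0.50 and -0.21 in tumors 1, 4, 6 and 8. The other tumors had -0.057, 0.033, -0.024 and 0.019 there, so that tumor 4 lay among them. The longest run was chr14:8000001-24000000, with -0.021, -0.22, -0.50 and -0.26 in tumors 1, 4, 6 and 8 against -0.015, -0.019, 0.37 and -0.033 in tumors 2, 3, 5 and 7. There tumor 1 lay among the others, as it did for the whole chromosome. Tumor 3 had a level of -0.011 over the proximal part of chromosome 14, and its loss began at 60.8 Mb.

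Whether any bin passed the adjustment depended on tumors 1 and 7. Without tumor 1, limma called 41 bins on the first scale, 40 lower on chromosome 14 and 1 higher on chromosome 6 (lowest adjusted p 0.0406). Without tumor 7 it called 1 bin, higher on chromosome 6. No bin of the second scale was called by limma with any tumor left out, with a lowest adjusted p of 0.320 without tumor 1. Calls that appear when a tumor is removed after its values are known are a description of the 7 remaining tumors. The unadjusted counts moved with other tumors too. With all tumors, 122 bins were lower on the second scale at an unadjusted limma p below 0.05. That count was 23 without tumor 6, 39 without tumor 5, 57 without tumor 7 and 80 without tumor 2. It lay between 129 and 259 with tumor 1, 3, 4 or 8 left out.

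The higher bin with the lowest p on the first scale was chr6:130000001-131000000, which held 17 probes. Its means were 0.44, 0.46, 0.097 and 0.38 in tumors 1, 4, 6 and 8 and -0.31, -0.32, -0.12 and 0.43 in tumors 2, 3, 5 and 7. Tumor 7 was as high as the loss tumors. Breakpoints of 5 tumors, 2 with the chromosome 12 loss and 3 without, met at this place on the second scale, between 129580218 and 130323038.

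Such meeting places were runs of breakpoints of at least 3 tumors, each within 500 kb of the next, so that a run could be longer than that. There were 18 on the second scale, and 0 of them were made up of loss tumors alone and 0 of other tumors alone. The first scale had 17, with 0 of loss tumors alone and 1 of other tumors alone, on chromosome 9 between 46076744 and 46275240. On chromosome 16, breakpoints of all 8 tumors met between 46056899 and 46293576 on the first scale, with a median step of 1.9 in size. This place was no longer among them after the shared pattern was removed.

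Segments shorter than 3 Mb with a mean of at least 0.8 in size numbered 5, 2, 6 and 2 in tumors 1, 4, 6 and 8 and 2, 2, 1 and 2 in tumors 2, 3, 5 and 7 on the second scale. The first scale gave 10, 7, 5 and 10 against 5, 7, 5 and 6. The cut was on the level itself, so a segment on lost ground passed with a smaller dip than one elsewhere. Most of those in tumors 1 and 6 on the second scale lay on lost chromosomes or stretches. On chromosome 4 of tumor 1 they had -0.91, -0.87 and -0.80, against -0.67 for the chromosome. The cut thus favours tumors with deep losses, and no difference between groups is read from the counts. In tumor 6, chr14:11131132-11290609 (16 probes) had a mean of -1.3 within a chromosome at -0.48, while the other 7 tumors lay between -0.23 and 0.38 there. Likewise chr13:108579209-108702580 (12 probes) had -1.2 in tumor 6, and -0.71 was the next lowest value, in tumor 1, whose chromosome 13 was lost as a whole. In tumor 1, chr6:71768460-72021329 (24 probes) had -0.82 inside the partial loss of chromosome 6, with -0.32 to 0.12 in the others.

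The lowest short segment was in the group without the loss. Tumors 2 and 3 had -2.7 and -2.2 at chr3:126301926-126351184 and chr3:126320678-126362964, each over 5 probes. In the interval called in tumor 2, the loss tumors 1, 4, 6 and 8 had 0.56, -0.27, 0.82 and -0.24. Tumors of both groups were thus spread over a wide range at this place.

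Genes could be placed by chromosome only, using the RefSeq table of GRCm38.p6, since the probes are on mm9. Outside chromosome 12, chromosomes lost as a whole in at least 1 loss tumor on the second scale hold 6218 of 20952 protein-coding genes (29.7%), and those lost in at least 1 other tumor hold 5854 (27.9%). On the first scale the share of the loss tumors was the same and that of the other tumors 0%, so every count given below for the other tumors is 0 there, while the counts for the loss tumors are the same. Of 17 tumor suppressor genes, 6 were on a chromosome lost in a loss tumor and 2 on one lost in another tumor. The first set included Rb1 and Cdkn2a, an inhibitor of cyclin-dependent kinases on chromosome 4, while Trp53 was on chromosome 11, which was lost as a whole in no tumor.

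Of 12 liver oncogenes, 3 were on a chromosome lost in a loss tumor and 5 on one lost in another tumor. The former included Ctnnb1, the Wnt effector β-catenin on chromosome 9, lost in tumor 6. The latter, all lost in tumor 3, included Met and Braf on chromosome 6 and Hras on chromosome 7, a growth factor receptor and 2 members of the RAS signalling cascade. Of 8 oxidative stress genes, 4 were on a chromosome lost in a loss tumor, among them Nqo1 and Hmox1 on chromosome 8 and Gclc, which starts glutathione synthesis, on chromosome 9. In each case these are calls of tumor 6, and 1 gene of that list was on a chromosome lost in another tumor.

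For DNA repair and mitosis, 3 of 14 genes lay on a chromosome lost in each group, and those of the loss tumors were Atm, Atr and Chek1 on chromosome 9, kinases of the DNA damage response. The Hippo pathway had 2 of 10 genes outside chromosome 12 on a chromosome lost in a loss tumor, against 4 on one lost in another tumor. The 2 were Lats2 on chromosome 14 and Yap1 on chromosome 9. For PI3K and mTOR signalling the counts were 2 of 7, Pik3r1 and Mtor, against 3. Tyrosine breakdown had 1 of 5 on each side, Tat on chromosome 8 in the loss tumors and Fah on chromosome 7 in tumor 3. Of 6 imprinted growth genes outside chromosome 12, 0 and 3 were on such chromosomes.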

How the data were processed

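Images were extracted with Agilent Feature Extraction 10.7.3.1, per the submitters' processing notes. Per the file headers, the authors deposited an intensity per spot and dye that had been background-subtracted and dye-normalized array by array, and the deposited log ratios are log10 of tumor (Cy5) over reference (Cy3). Quality marks in the deposited files are of the unit other (0 or 1), and probe positions are on mm9. Dyes were not swapped, so a dye effect at a probe does not cancel.

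Log2 ratios of the processed signals were centred on the median over autosomal spots, spots with an outlier mark were left out (115 to 221 per array), and spots of a probe were averaged. In both channels, 97.0% to 99.9% of spots had the mark for a signal well above background. Segments came from circular binary segmentation written in Python 3.11.15 (numpy 2.4.6, numba 0.67.0), with at least 5 probes and a merge z of 4. The split threshold gave 1% false splits per chromosome in simulated independent noise, and the rate on the arrays was not measured. The second scale subtracts the median probe pattern over arrays, scaled to each array, after which the probe noise was 0.12 to 0.21. Segmentation and limma were tested on simulated data with independent noise. Bins were tested with limma 3.58.1 in R 4.3.3, and single values by two-sided exact permutation tests. Plots used matplotlib 3.10.9.

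The members, gene lists and tests were chosen with earlier results of these data known. Named were chromosomes called whole on either scale and up to 10 bin runs per direction with the lowest limma p. Large-step and shared breakpoints, short segments of at least 0.8 in size, and up to 5 genes per list in list order were named too. Of these the text gives those that bear on the comparison. Tert, Pik3r1, Lats2, Yap1, Mtor and single short segments were picked after their values were seen. Alternatives were other centring, background and filtering, call and split thresholds, bin sizes, slide as a block and tumors left out.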

Additional observations from a re-analysis of the deposited data

Results flagged for a closer look

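Within a group of 4 tumors, a single tumor was far from the other 3 in 10 of 108 groups examined. A rate of 1 in 20 would give 5.4. The groups include tied counts, and the same measures enter on both scales, so 5.4 is not a chance expectation and no excess is read from the 10. Tumor 7 stood out among the other tumors with 184 breakpoints and 81 called segments on the first scale, against 15 to 26 and 13 to 20 in tumors 2, 3 and 5, and with 15 large-scale breakpoints against 2 to 4. Tumor 3 stood out with 5 whole-chromosome losses on the second scale, against 0 in the other 3, and with a chromosome 1 mean of -0.31. Tumor 5 had a chromosome 16 mean of 0.72 on that scale.

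Among the chromosome 12 loss tumors on the second scale, tumor 6 stood out with a chromosome 8 mean of -0.49, tumor 4 with a chromosome 19 mean of -0.17 against -0.0087 to -0.0044, and tumor 1 with a chromosome 11 mean of -0.0051 against 0.011 to 0.014. On chromosome 11 all 4 lay near 0, with differences smaller than the SD over 1 Mb bins in tumor 1 (0.072). Tumor 1 was also the only loss tumor with 0 whole-chromosome gains, where the other 3 had 1 each. The means of X differed between the groups by -0.21 on the second scale (exact permutation p = 0.0286, adjusted p 0.407), with the 4 loss tumors lower than the 4 others.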

How the results depend on the processing

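Values here are means of the loss tumors minus the others, outside chromosome 12. Of 188 recomputed results beside those with 1 tumor left out, 149 kept their direction and their side of the threshold, 24 changed sign, 4 became significant and 11 moved. No difference that changed sign was significant before or after. On the first scale called segments turned to -4.75 with the commonest level at 0, -7.25 with the pattern subtracted, -10.2 with the pattern of the other 7 arrays and -7.0 at a call threshold of 0.1. Gained length turned to -2.01, -1.81, -1.70 and, at a call threshold of 0.3, -0.820 percentage points. Whole-chromosome gains turned to -0.50 in these 4 settings and -0.75 with normexp. Without tumors 7 and 8, breakpoints became 5.0 and, pattern subtracted, 25.3, called segments on that scale 19.7, and large-scale breakpoints 1.33 (3.67 on the first scale). Pattern subtracted, segments were 17.0 at a call threshold of 0.3 and gained length 1.43 at 0.1. Large-scale breakpoints were 1.5 (first scale 1.0) at a step of 0.3 and 0.50 on both scales with stretches of 10 Mb. Within slide 1 they were 3.0 and 7.5, and within slide 2 -4.0 and -8.5. The causes were not tested.

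Lost length reached an exact permutation p of 0.0286 with centring without chromosome 12 (10.8), normexp (9.60), spots well above background (10.4) and a split threshold of 0.1% (10.4). Chromosomes whose groups did not overlap numbered 2 with the commonest level at 0, 1 with the pattern subtracted, 2 with the pattern of the other 7 arrays, 1 with normexp and 2 without tumors 7 and 8 (2 on the second scale too). Chromosome 7 was among them with the commonest level at 0, the pattern of the other 7 arrays and normexp. Its lowest loss tumor was at -0.0101, -0.0120 and 0.0569 in these settings. The highest other tumor was at -0.0117, -0.0121 and 0.0563. With labels permuted within slide, 2 chromosomes had the smallest p, which is 0.0556. Bins stayed at 0 called by limma under every setting other than leaving out tumor 1 or 7, and at an unadjusted p under 0.05 there were 116 lower and 38 higher on the first scale. Chromosome 12 called lost with the pattern subtracted picks the same 4 tumors.

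With 1 tumor left out, the first scale gave breakpoints of -36.1 to 21.6, called segments 0.417 to 23.1, SD of chromosome means 0.018 to 0.088, gained length 7.86 to 26.1, lost length 5.15 to 13.2 (significant without tumor 4, exact permutation p = 0.0286), whole gains 1.25 to 4.58, whole losses 0.667 to 2.33 and large-scale breakpoints -2.25 to 2.42. Pattern subtracted, these were -75.8 to 26.2, -27.2 to 19.2, 0.018 to 0.088, -3.47 to 1.91, -0.683 to 12.4, -0.917 to 0.417, -0.25 to 2.0 and -1.5 to 0.667. Breakpoints turned positive without tumor 7 on both scales. Lost length and whole losses, pattern subtracted, turned negative without tumor 6, and gained length and whole gains turned positive without tumor 5. Chromosomes whose groups did not overlap ranged from 0 to 2 on the first scale and 1 to 2 on the second, and bins called by limma from 0 to 41 and 0 to 0. No replicate number pairs the tumors. Probe noise was higher in tumors 1 to 6 on the first scale and in tumors 7 and 8 on the second. Its effect on short segments was not tested.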
